A study of Mus musculus with 24 samples.

Results

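The 37 genes of mouse mitochondrial DNA were taken from the deposited count table by their symbols, as every row whose name starts with mt-, out of 55401 rows in all. They comprise 13 protein genes, 2 rRNA genes and 22 tRNA genes on chromosome M of build mm10. Messenger RNA was counted per gene in mouse oocytes, 5 cells per library, in 12 deposited columns forming 6 groups of 2; the series text calls the cells both oocytes and embryos. The study, by its title, concerns microplastics at low dose, meiotic maturation and histone deacetylases; PSMPs are read here as polystyrene microplastics.

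The group PSMPs & OE-Hdac3 holds exposed oocytes that overexpress Hdac3, a class I histone deacetylase. The group in vitro PSMPs is labelled as exposed in vitro, taken here as exposure in culture, SAHA (vorinostat) is an inhibitor of histone deacetylases, and con-in vitro is the control labelled in vitro. In vivo PSMPs is labelled as exposed in vivo, taken here as exposure in the animal, and con is the control with no such addition. The labels give no more than these names. Dose, duration, strain, age and maturation stage are not given in the sources used here, nor are the control of SAHA, how Hdac3 was delivered and whether oocytes with extra Hdac3 were exposed in culture or in the animal. SAHA was therefore set against both controls, and PSMPs & OE-Hdac3 against both exposed groups. The labels do not say that libraries came from separate animals or cultures, so p-values measure only the spread between these libraries.

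Mammalian mitochondrial DNA is a small circle inherited through the oocyte, which stores many copies of it. Both strands are copied by the polymerase Polrmt with Tfam and Tfb2m into long precursors, from which tRNAs are cut out so that the mRNAs and rRNAs between them are released and polyadenylated. Its protein genes make core subunits of respiratory complexes I, III and IV and of ATP synthase, and all other subunits are made from nuclear genes.

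Depth ran from 6219784 to 35637689 counts per library. Both columns labelled in vivo PSMPs agreed closely (chi-square per degree of freedom of 0.444, where the replicate pairs of other groups gave 16.5 to 384); their difference was thus less than the sampling noise, and they were counted as 1 sample, which left 11 libraries. Both control groups stood apart in the number of genes with a count, 11832 and 11640 in con-in vitro and 12316 and 12843 in con, against 17722 to 20957 in the other columns. Hdac3 stood at 336 and 228 CPM (counts scaled by library size and TMM factors) in PSMPs & OE-Hdac3, against 7.17 to 37.4 CPM in all other libraries. Of 12 oocyte markers 11 or 12 had counts in every library, summing to 9903 to 38753 CPM, and con-in vitro held the lowest sums. Of 20 cumulus and granulosa cell markers, 15 had counts in in vivo PSMPs (162 CPM in all) and 4 in each con library (42.1 and 66.0 CPM). In PSMPs & OE-Hdac3 16 and 13 had counts, in SAHA 12 and 14, in in vitro PSMPs 13 and 10, and in con-in vitro 5 and 4. Inha, which encodes the inhibin alpha subunit of granulosa cells, stood at 59.4 CPM in in vivo PSMPs and at 0 in con. Cyp19a1 (20.4 CPM in in vivo PSMPs, 29.4 and 17.6 in con) and Nr5a2 (32.4, and 4.79 and 34.7) lay between the con libraries. Kitl (0.052, and 0.208 and 9.12) lay below both. The part of these differences in the results below was not tested.

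Nearly all of the mitochondrial signal came from 9 genes. In every library the 2 rRNA genes and 7 of the protein genes together held between 97.9% and 99.8% of the mitochondrial counts. The other 6 protein genes lie side by side at chrM:7013-10173 and encode the cytochrome c oxidase subunits Co2 and Co3, the ATP synthase subunits Atp8 and Atp6 and the complex I subunits Nd3 and Nd4l; they are called the trough genes here, and the other 7 protein genes the abundant ones. They held from 0.0817% of the mitochondrial counts in con 2 to 1.92% in in vitro PSMPs 2, and only 23 and 15 counts in the con-in vitro libraries. Per kilobase of gene, the median CPM of the 7 exceeded that of the 6 between 9.41-fold in in vitro PSMPs 1 and 577-fold in con 2. The 2 sets of levels overlapped in both in vitro PSMPs libraries alone, where mt-Atp6 (39.0 and 57.3 CPM per kilobase) stood above mt-Nd6 (12.96 and 32.1).

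**Figure D1:**
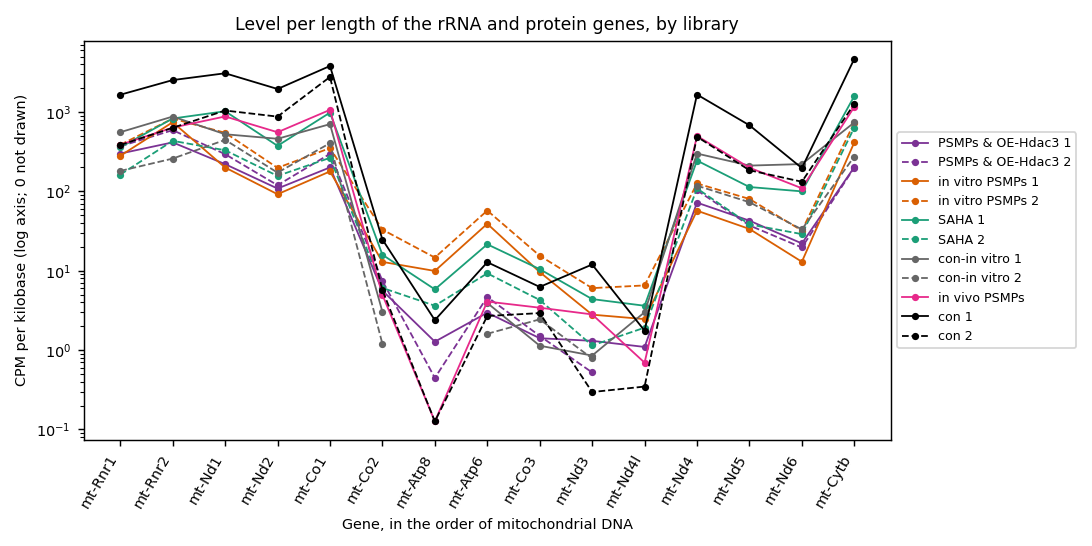
Level per gene length, as CPM per kilobase on a log axis, of the 2 rRNA and 13 protein genes in the order of mitochondrial DNA, with 1 line per library. The 6 neighbours mt-Co2 to mt-Nd4l form a trough in all libraries, which is shallowest in in vitro PSMPs.

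Of these 6 genes, all but mt-Atp8 have gene models in nuclear DNA that are taken here, by their order and lengths, as counterparts. On chromosome 1 the count table holds 7 neighbouring gene models on the minus strand (chr1:24611535-24616197, mm10): Gm28439, Gm10222, Gm28438, Gm28437, Gm10925, Gm28661 and Gm29216. In this order they were set beside mt-Nd4, mt-Nd4l, mt-Nd3, mt-Co3, mt-Atp6, mt-Co2 and mt-Co1, with lengths of 294, 345, 783, 678 and 681 bases in place of 297, 348, 784, 681 and 684 for the 5 from mt-Nd4l to mt-Co2; Gm28439 (876 bases) and Gm29216 (492 bases) are shorter than mt-Nd4 (1378) and mt-Co1 (1545). RefSeq's table for GRCm38.p6 lists Gm10925 as a pseudogene with mt-Atp6 among its other names; sequence identity of the others was not computed. How reads with several positions were counted is not given in the sources used here, so the counts of these 5 genes are uncertain, as are those of mt-Atp8, which overlaps mt-Atp6, and part of those of mt-Co1 and mt-Nd4.

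The summed level of the 6 genes and that of the 5 nuclear models were of similar size in PSMPs & OE-Hdac3, in vitro PSMPs and in vivo PSMPs, while the models were higher in the other groups. In PSMPs & OE-Hdac3 the 6 genes summed to 8.003 and 9.73 CPM and the 5 models beside them to 7.87 and 9.82 CPM. In in vitro PSMPs the sums were 46.7 and 80.7 CPM beside 38.1 and 71.7 CPM, and in SAHA 37.5 and 15.5 CPM beside 57.3 and 23.1 CPM. The con-in vitro sums were 6.82 and 4.10 CPM beside 13.4 and 6.01 CPM. The 6 genes summed to 10.1 CPM beside 9.82 CPM in in vivo PSMPs and to 35.7 and 8.24 CPM beside 94.4 and 22.7 CPM in con. Gm29216, beside mt-Co1, stood at 181 CPM in con 1 and at no more than 5.03 CPM in any other library.

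The share of all counts that fell in the 37 genes was low throughout and highest in con. It was 0.314% and 0.408% in PSMPs & OE-Hdac3, 0.329% and 0.415% in in vitro PSMPs, 0.644% and 0.245% in SAHA, 0.312% and 0.140% in con-in vitro, 0.876% in in vivo PSMPs, and 2.38% and 1.10% in con. Both con libraries lay above every other library, in vivo PSMPs lay next, and the 8 libraries of the remaining groups lay below 0.65%. The exact 95% binomial interval was narrow in every library (0.138% to 0.143% in the smallest, con-in vitro 2, and 2.37% to 2.38% in the largest, con 1); it covers counting error only, since the labels name no molecular identifiers.

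Replicates of a group differed far more than counting error. The higher library of a group exceeded the lower one 1.30-fold in PSMPs & OE-Hdac3, 1.26-fold in in vitro PSMPs, 2.63-fold in SAHA, 2.22-fold in con-in vitro and 2.17-fold in con. Group means were 0.361% ± 0.0666 in PSMPs & OE-Hdac3, 0.372% ± 0.0609 in in vitro PSMPs, 0.444% ± 0.282 in SAHA, 0.226% ± 0.121 in con-in vitro and 1.74% ± 0.906 in con (SD, n = 2 each), beside the single value of in vivo PSMPs. The means stood in a ratio of 0.504 for in vivo PSMPs over con, 1.64 for in vitro PSMPs over con-in vitro, 1.96 for SAHA over con-in vitro, 0.255 for SAHA over con, 0.972 for PSMPs & OE-Hdac3 over in vitro PSMPs, 0.412 for PSMPs & OE-Hdac3 over in vivo PSMPs and 0.130 for con-in vitro over con. Libraries of the compared groups overlapped for SAHA over con-in vitro and for PSMPs & OE-Hdac3 over in vitro PSMPs, and not for the other 5. A design of 2 libraries against 2 cannot go below p = 0.333 in an exact permutation test, so the shares were not tested; in such pooled cells, fewer mitochondrial RNA molecules and more RNA from other genes cannot be told apart.

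**Figure D2:**
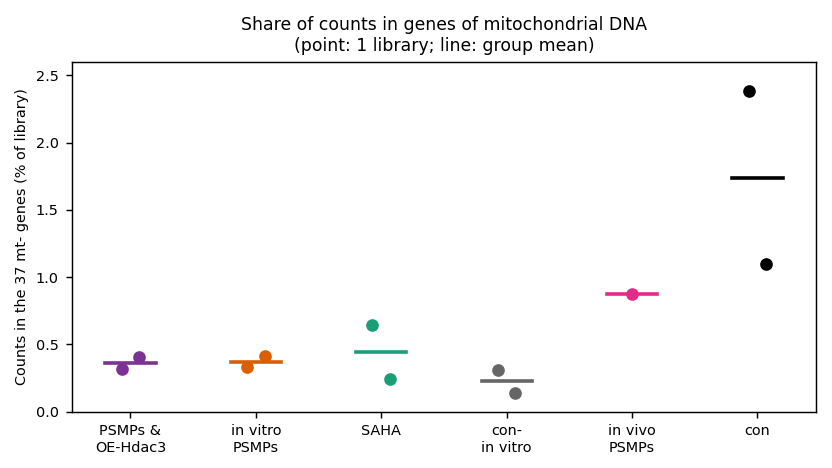
Share of each library's counts in the 37 mt- genes, in percent, by group; points are libraries and lines are group means. The con libraries, at 2.38% and 1.10%, stand above all others, and in vivo PSMPs, at 0.876%, stands next.

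Among the complex IV genes, mt-Co1, the catalytic subunit of cytochrome c oxidase, was the abundant one. Its level was 309 and 458 CPM in PSMPs & OE-Hdac3, 276 and 542 CPM in in vitro PSMPs, 1517 and 409 CPM in SAHA, 1086 and 625 CPM in con-in vitro, 1644 CPM in in vivo PSMPs, and 5868 and 4270 CPM in con. The con libraries were thus far above all others, while PSMPs & OE-Hdac3 overlapped in vitro PSMPs, and SAHA overlapped con-in vitro. mt-Co2 ran from 0.82 CPM in con-in vitro 2 to 22.5 CPM in in vitro PSMPs 2, and mt-Co3 from 0.89 CPM in con-in vitro 1 to 12.1 CPM in in vitro PSMPs 2.

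mt-Cytb, the one mitochondrial subunit of complex III, had the highest level per length in both SAHA libraries, in in vivo PSMPs and in con 1. It stood at 231 and 228 CPM in PSMPs & OE-Hdac3, 473 and 840 CPM in in vitro PSMPs, 1820 and 728 CPM in SAHA, 845 and 314 CPM in con-in vitro, 1327 CPM in in vivo PSMPs and 5344 and 1448 CPM in con. Its level per length over that of mt-Co1 was 1.01 and 0.672 in PSMPs & OE-Hdac3, 2.32 and 2.09 in in vitro PSMPs, 1.62 and 2.41 in SAHA, 1.05 and 0.679 in con-in vitro, 1.09 in in vivo PSMPs and 1.23 and 0.458 in con. The 4 libraries of in vitro PSMPs and SAHA lay above all others in this ratio, which does not depend on library scaling.

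Of the 7 complex I genes, which encode membrane subunits of NADH dehydrogenase, mt-Nd1 had the highest level per length in every library, followed by mt-Nd2 and mt-Nd4. mt-Nd5 came next and mt-Nd6 after it, except in con-in vitro 1, where mt-Nd6 stood above mt-Nd5. mt-Nd1 stood at 211 and 281 CPM in PSMPs & OE-Hdac3, 191 and 523 CPM in in vitro PSMPs, 978 and 315 CPM in SAHA, 502 and 426 CPM in con-in vitro, 841 CPM in in vivo PSMPs and 2943 and 999 CPM in con. mt-Nd2 ran from 95.5 CPM in in vitro PSMPs 1 to 2023 CPM in con 1, mt-Nd4 from 78.6 to 2285 CPM and mt-Nd5 from 61.3 to 1240 CPM, with the lowest and highest value in the same 2 libraries. mt-Nd3 did not exceed 4.17 CPM and mt-Nd4l did not exceed 1.94 CPM in any library.

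mt-Nd6 is the only protein gene on the minus strand and overlaps mt-Nd5 by 14 bases on the opposite strand. It stood at 11.5 and 10.2 CPM in PSMPs & OE-Hdac3, 6.73 and 16.6 CPM in in vitro PSMPs, 51.9 and 15.01 CPM in SAHA, 115 and 17.2 CPM in con-in vitro, 56.8 CPM in in vivo PSMPs and 102 and 68.6 CPM in con. The highest value of all was that of con-in vitro 1, 6.65-fold above its replicate. Per length, mt-Nd6 over mt-Nd5 ran from 0.289 in con 1 to 1.05 in con-in vitro 1. Whether the counting used strand is not given in the sources used here.

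Both ATP synthase genes belong to the trough. mt-Atp6, a subunit of the proton channel, stood at 2.02 and 3.18 CPM in PSMPs & OE-Hdac3, 26.6 and 39.0 CPM in in vitro PSMPs, 14.7 and 6.31 CPM in SAHA, 2.67 and 1.09 CPM in con-in vitro, 2.78 CPM in in vivo PSMPs and 8.72 and 1.83 CPM in con. mt-Atp8, which shares 43 bases with mt-Atp6 on the same strand, did not exceed 2.99 CPM and had no count in con-in vitro. The in vitro PSMPs libraries lay above all others in both genes.

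The rRNAs of the large (mt-Rnr2) and small (mt-Rnr1) mitochondrial ribosomal subunit were highest in con 1. mt-Rnr2 stood at 655 and 934 CPM in PSMPs & OE-Hdac3, 1176 and 1306 CPM in in vitro PSMPs, 1309 and 685.5 CPM in SAHA, 1386 and 409 CPM in con-in vitro, 1006 CPM in in vivo PSMPs and 3993 and 1000 CPM in con. mt-Rnr1 stood at 286 and 352 CPM, 268 and 369 CPM, 343 and 155 CPM, and 531 and 173 CPM in PSMPs & OE-Hdac3, in vitro PSMPs, SAHA and con-in vitro, at 369 CPM in in vivo PSMPs and at 1575 and 366 CPM in con. Apart from con 1, mt-Rnr2 lay between 409 and 1386 CPM and mt-Rnr1 between 155 and 531 CPM in all libraries, and the con-in vitro libraries took both ends of the range of mt-Rnr2. mt-Rnr2 exceeded mt-Rnr1 per length in all 11 libraries, between 1.38-fold and 2.67-fold.

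The 2 rRNAs together made up very different parts of the mitochondrial counts. Their part was 46.9% and 49.3% in PSMPs & OE-Hdac3, 53.9% and 39.8% in in vitro PSMPs, 23.6% and 31.0% in SAHA, 33.3% and 23.7% in con-in vitro, 20.0% in in vivo PSMPs and 21.9% and 13.5% in con. All 4 libraries of PSMPs & OE-Hdac3 and in vitro PSMPs lay above the 7 others. mt-Rnr2 over mt-Co1, per length, was 2.07 and 1.99 in PSMPs & OE-Hdac3, 4.17 and 2.35 in in vitro PSMPs, 0.843 and 1.64 in SAHA, 1.25 and 0.639 in con-in vitro, 0.598 in in vivo PSMPs and 0.665 and 0.229 in con. The same 4 libraries were highest in this ratio, and con 2 was lowest.

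**Figure D3:**
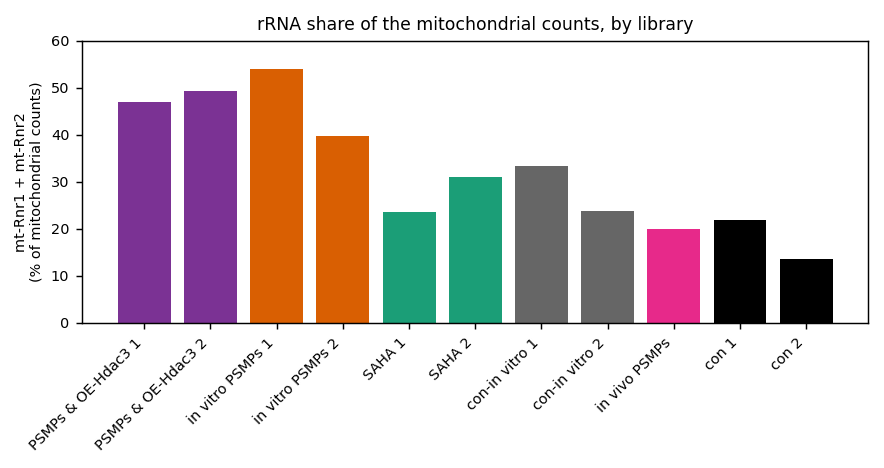
Part of the mitochondrial counts that fell in mt-Rnr1 and mt-Rnr2, in percent, 1 bar per library. The bars of PSMPs & OE-Hdac3 and in vitro PSMPs, from 39.8% to 53.9%, stand above the bars of the other groups, from 13.5% to 33.3%.

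The libraries of one group also did not differ by one factor across genes. Over the 9 abundant genes the level in con 1 exceeded that in con 2 between 1.37-fold (mt-Co1) and 4.30-fold (mt-Rnr1). SAHA 1 exceeded SAHA 2 between 1.91-fold and 3.71-fold, and con-in vitro 1 exceeded con-in vitro 2 between 1.18-fold and 6.65-fold. The ratio of the first to the second library ran from 0.675 to 1.15 in PSMPs & OE-Hdac3 and from 0.365 to 0.900 in in vitro PSMPs.

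Little of the signal came from the tRNA genes. They gave 1399 counts in all libraries together, of which 76.9% belonged to mt-Tp, the proline tRNA on the minus strand at the end of the coding part. mt-Tp stood at 3.06 and 3.46 CPM in PSMPs & OE-Hdac3, 2.59 and 2.42 CPM in in vitro PSMPs, 3.00 and 1.25 CPM in SAHA, 10.4 and 9.29 CPM in con-in vitro, 4.12 CPM in in vivo PSMPs and 7.30 and 10.7 CPM in con. The 4 control libraries were the 4 highest. Of the 22 genes, 4 had no count in any deposited column, mt-Tf had 1 count in 1 in vivo PSMPs column alone, and 15 (these 5 included) had under 10 counts in every library, a level at which differences were not detectable.

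Differences were tested with edgeR's quasi-likelihood test over the 16736 genes past a filter on low counts, with Benjamini-Hochberg adjusted p-values and 0.05 as threshold. All 13 protein genes, both rRNA genes and 4 of the 22 tRNA genes (mt-Tl1, mt-Tm, mt-Tc and mt-Tp) passed the filter; the other 18 genes were not tested. Fold changes below are log2 values on the TMM scale with their standard errors.

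**Figure D4:**
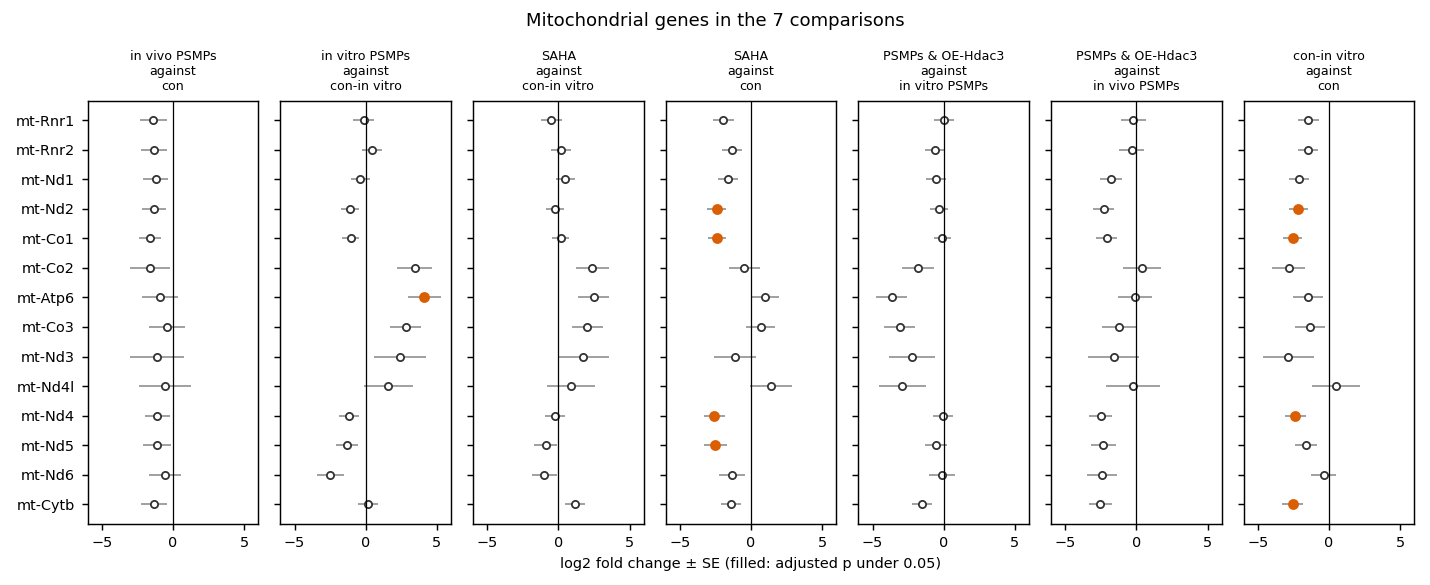
log2 fold change ± SE of the 2 rRNA genes and 12 protein genes in the 7 comparisons (first-named group over second); filled points passed an adjusted p of 0.05. mt-Atp8 is left out because it had no count in con-in vitro. The 9 filled points are mt-Atp6 in in vitro PSMPs against con-in vitro and 4 genes each in SAHA and in con-in vitro against con.

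Oocytes of exposed animals gave no call among the mitochondrial mRNAs, and the direction of their values rested on con 1. Against con, 0 of the 13 protein genes were called by edgeR, 0 had an unadjusted p under 0.05 and 0 were called by DESeq2, where 4.88% of all genes tested were called by edgeR, 4.59% higher and 0.287% lower. Over all 16736 genes, 4402 had an unadjusted edgeR p under 0.05, and DESeq2 called 1903 higher and 825 lower. All 13 fold changes were below 0, with a median of -1.12 beside 0.25 over all genes tested, and 6 of 13 genes lay below both con libraries, as did 22.6% of all genes, and none lay above both, as did 45.6%. The direction was the same under all scalings tried, but without con 1 only 6 of the 13 lay below 0 and 6 above, with a median of 0.00062. mt-Co1, at 1644 CPM in in vivo PSMPs against 5868 and 4270 CPM in con, gave -1.62 ± 0.80 (edgeR adjusted p = 0.238). mt-Nd2 gave -1.35 ± 0.82 (edgeR adjusted p = 0.352), and mt-Atp8 had 0 and 2 counts in the in vivo PSMPs columns against 14 and 1 in con (edgeR adjusted p = 0.392).

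The minus-strand gene mt-Nd6 gave -0.59 ± 1.11 (edgeR adjusted p = 0.825), mt-Rnr1 -1.39 ± 0.94 (0.401) and mt-Rnr2 -1.31 ± 0.91 (0.417). In vivo PSMPs lay between the con libraries in both rRNAs, and without con 1 their fold changes were 0.01 and 0.01. The spread of in vivo PSMPs, a single sample, was assumed to be like that of the other groups.

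Oocytes exposed in culture had higher values of the trough genes and lower values of most abundant ones, with 1 call among the 13. Against con-in vitro, 1 of the 13 protein genes passed, mt-Atp6, which rose by 4.12 ± 1.15 (edgeR adjusted p = 0.0419), while 15.4% of all genes were called, 8.57% higher and 6.78% lower. Its level was 26.6 and 39.0 CPM in in vitro PSMPs against 2.67 and 1.09 CPM in con-in vitro, where it rested on 9 and 4 counts. All 6 trough genes had fold changes above 0 (median 3.12, beside 0.71 over all genes), and 5 of the 6 lay above both con-in vitro libraries, as did 44.3% of all genes. mt-Atp8 had 25 and 37 counts in in vitro PSMPs and none in con-in vitro, a mean level at least 5.88-fold higher against 3 counts over the group (edgeR adjusted p = 0.0747).

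The nuclear models beside them were not called, and both described here had higher values. Gm10925, beside mt-Atp6, stood at 23.9 and 32.4 CPM in in vitro PSMPs against 2.08 and 0.27 CPM in con-in vitro (4.59 ± 1.44, edgeR adjusted p = 0.0625). Gm28437, beside mt-Co3, gave 3.80 ± 1.15 (edgeR adjusted p = 0.0546). Whether the counts of mt-Atp6 came from mitochondrial or from nuclear DNA copies cannot be told apart in these counts.

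Of the 7 abundant protein genes, 6 had fold changes below 0 against con-in vitro (5 with libraries scaled by their totals or without in vitro PSMPs 1), with a median of -1.12 (-0.17 with libraries scaled by their totals, and -0.36 without con-in vitro 1); 2 of the 7 lay below both con-in vitro libraries, as did 20.0% of all genes, and none passed the test. mt-Nd6 had the largest difference, at 6.73 and 16.6 CPM in in vitro PSMPs against 115 and 17.2 CPM in con-in vitro (-2.49 ± 0.94, edgeR adjusted p = 0.105). mt-Rnr1 gave -0.14 ± 0.72 (edgeR adjusted p = 0.916) and 0.84 with libraries scaled by their totals, and mt-Rnr2 gave 0.47 ± 0.70 (edgeR adjusted p = 0.672). The call of mt-Atp6 was kept without either con library or either in vivo PSMPs column, and lost without any other library. Without either in vitro PSMPs library, either SAHA library, either PSMPs & OE-Hdac3 library or con-in vitro 1 the number of genes called was 0. Without con-in vitro 2 mt-Nd6 alone was called, as lower. Without either con library 4 trough genes were called higher, mt-Atp6 included. In these fits 3300 (without con 1) and 3448 (without con 2) of all 16736 genes were called higher.

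SAHA gave no call among the mitochondrial mRNAs against con-in vitro. Of the 13 protein genes 0 were called by edgeR, 2 had an unadjusted p under 0.05 and 1 (mt-Atp6) was called by DESeq2, beside 19.8% of all genes called by edgeR, 11.7% higher and 8.14% lower. Over all 16736 genes, 6152 had an unadjusted edgeR p under 0.05, and DESeq2 called 3138 higher and 2215 lower. The median fold change was 0.90 over the 13 genes, beside 0.66 over all genes, 2.204 over the 6 trough genes and -0.24 over the 7 others, where the last was 0.49 with libraries scaled by their totals, 0.62 without con-in vitro 1 and 0.25 without SAHA 2. mt-Atp8 had 21 and 13 counts in SAHA and none in con-in vitro, a mean level at least 2.26-fold higher (edgeR adjusted p = 0.123).

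Of the 6 trough genes 5 lay above both con-in vitro libraries, as did 45.3% of all genes, and none of the 7 abundant genes lay below both, as did 23.0%. mt-Atp6 stood at 14.7 and 6.31 CPM in SAHA against 2.67 and 1.09 CPM in con-in vitro (2.48 ± 1.08, edgeR adjusted p = 0.132), and mt-Co2 gave 2.37 ± 1.17 (edgeR adjusted p = 0.171). mt-Nd6 gave -0.98 ± 0.90 (edgeR adjusted p = 0.454) and 0.96 without con-in vitro 1. mt-Rnr1 gave -0.50 ± 0.72 (edgeR adjusted p = 0.643), 0.24 with libraries scaled by their totals, and mt-Rnr2 gave 0.15 ± 0.70 (edgeR adjusted p = 0.902). Without con 1 or without con 2, which enter through the shared spread, mt-Atp8 and mt-Atp6 were called higher. In these fits 3871 and 3803 of all 16736 genes were called higher, and 2530 and 2552 lower.

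Against con, 4 abundant mitochondrial mRNAs had lower scaled levels in SAHA. Called lower were mt-Co1, mt-Nd2, mt-Nd4 and mt-Nd5, where 27.0% of all genes were called, 20.2% higher and 6.75% lower, and none of the 13 was called higher. mt-Co1 stood at 1517 and 409 CPM in SAHA against 5868 and 4270 CPM in con and fell by 2.40 ± 0.63 on the log2 scale (edgeR adjusted p = 0.0250). mt-Nd2 stood at 389 and 162 CPM in SAHA against 2023 and 908 CPM in con (-2.41 ± 0.66, edgeR adjusted p = 0.0283). mt-Nd4, a subunit of the proton pumping arm of complex I, stood at 337 and 150 CPM in SAHA against 2285 and 672 CPM in con (-2.60 ± 0.74, edgeR adjusted p = 0.0312), and mt-Nd5 at 207 and 69.9 CPM in SAHA against 1240 and 336 CPM in con (-2.51 ± 0.81, edgeR adjusted p = 0.0491).

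All 7 abundant protein genes had fold changes below 0, with a median of -2.40 beside 0.59 over all genes, and in 6 of 7 both SAHA libraries lay below both con libraries, as in 19.2% of all genes; the direction was the same under all scalings tried. The trough genes had a median of 0.84, none passed, and 2 of the 6 lay above both con libraries, as did 44.2% of all genes. mt-Nd6 gave -1.35 ± 0.90 (edgeR adjusted p = 0.305), mt-Rnr1 -1.96 ± 0.75 (0.0813) and mt-Rnr2 -1.32 ± 0.71 (0.202). The tRNA gene mt-Tm, for methionine, had 35 and 8 counts in SAHA and none in con, a mean level at least 27.4-fold higher against 3 counts over the group (edgeR adjusted p = 0.0274, a call lost without SAHA 1).

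The number of mitochondrial mRNAs called in this comparison moved with single libraries. Without con 2 it was 6, all lower, and without con 1 it was 2, mt-Co1 lower and mt-Atp8 higher. It was 1 (mt-Co1) without either PSMPs & OE-Hdac3 library, and 0 without either SAHA library or when only SAHA and con entered the fit. Of all 16736 genes, 4553 were called higher and 1829 lower without con 2, and 4790 and 1867 without con 1.

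Oocytes with PSMPs & OE-Hdac3 showed no call among the mitochondrial mRNAs against exposure in culture. Of the 13 protein genes 0 were called by edgeR, 3 had an unadjusted p under 0.05 and 2 (mt-Atp6 and mt-Co3, lower) were called by DESeq2, beside 4.83% of all genes called by edgeR, 1.85% higher and 2.98% lower. Over all 16736 genes, 3276 had an unadjusted edgeR p under 0.05, and DESeq2 called 1148 higher and 1444 lower. All 13 had fold changes below 0 (7 with libraries scaled by their totals, 12 with TMM factors from genes with 10 counts in every library, 7 without in vitro PSMPs 2, 11 without PSMPs & OE-Hdac3 1), with a median of -3.00 over the trough genes, -0.35 over the 7 others (0.21 with libraries scaled by their totals) and 0.09 over all genes. All 6 trough genes lay below both in vitro PSMPs libraries, as did 34.0% of all genes, and none of the 13 lay above both, as did 38.0%.

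The 3 genes with the smallest p belong to the trough. mt-Atp6 stood at 2.02 and 3.18 CPM in PSMPs & OE-Hdac3 against 26.6 and 39.0 CPM in in vitro PSMPs (-3.66 ± 1.10, edgeR adjusted p = 0.103). mt-Co3 stood at 1.11 and 1.18 CPM in PSMPs & OE-Hdac3 against 7.54 and 12.1 CPM in in vitro PSMPs (-3.10 ± 1.10, edgeR adjusted p = 0.156), and mt-Atp8 had 4 and 1 counts in PSMPs & OE-Hdac3 against 25 and 37 in in vitro PSMPs (edgeR adjusted p = 0.214). mt-Nd6 gave -0.11 ± 0.90 (edgeR adjusted p = 0.966), mt-Rnr1 0.00 ± 0.72 (adjusted p of 1) and mt-Rnr2 -0.64 ± 0.70 (0.671). In a fit of only the compared groups, 2648 of all 13984 genes tested rose and 2843 fell. Without con 1 or without con 2, 3 trough genes were called lower (mt-Atp8, mt-Atp6 and mt-Co3), and 5 genes were called lower when only the compared groups entered the fit. Of all 16736 genes, 1298 were called lower without con 1 and 1315 without con 2.

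Against exposure in the animal, the same oocytes had lower values of the abundant mRNAs with rRNA levels close together. Of the 13 protein genes 0 were called by edgeR, 6 had an unadjusted p under 0.05 and 0 were called by DESeq2. Of all genes tested 0.0% were called by edgeR in either direction. Over all 16736 genes, 2407 had an unadjusted edgeR p under 0.05, and DESeq2 called 531 higher and 339 lower. All 7 abundant protein genes lay below in vivo PSMPs, as did 37.7% of all genes, with a median fold change of -2.31 beside 0.23 over all genes and the same direction under all scalings tried. Of the trough genes 2 lay above in vivo PSMPs, as did 49.0% of all genes, and 2 below it. mt-Cytb stood at 231 and 228 CPM in PSMPs & OE-Hdac3 against 1327 CPM in in vivo PSMPs (-2.53 ± 0.82, edgeR adjusted p = 0.240), mt-Nd2 gave -2.29 ± 0.74 (0.240) and mt-Nd4 -2.51 ± 0.82 (0.242). mt-Nd6 gave -2.39 ± 1.05 (edgeR adjusted p = 0.344), mt-Rnr1 -0.21 ± 0.87 (0.991; 0.09 on the log2 scale with libraries scaled by their totals) and mt-Rnr2 -0.34 ± 0.85 (0.970). In vivo PSMPs is 1 library, so a fit of these 3 libraries alone takes its spread from PSMPs & OE-Hdac3 only. Its calls are therefore not given here.

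In the control labelled in vitro, 4 abundant mitochondrial mRNAs had lower scaled levels than in con. Against con, mt-Co1, mt-Cytb, mt-Nd2 and mt-Nd4 were called lower in con-in vitro, where 25.1% of all genes were called, 14.7% higher and 10.5% lower, and none of the 13 was called higher. mt-Co1 stood at 1086 and 625 CPM in con-in vitro against 5868 and 4270 CPM in con (-2.57 ± 0.64, edgeR adjusted p = 0.0206). mt-Cytb stood at 845 and 314 CPM in con-in vitro against 5344 and 1448 CPM in con (-2.55 ± 0.74, edgeR adjusted p = 0.0344). mt-Nd2 stood at 477 and 179 CPM in con-in vitro against 2023 and 908 CPM in con (-2.16 ± 0.66, edgeR adjusted p = 0.0411), and mt-Nd4 at 412 and 163 CPM in con-in vitro against 2285 and 672 CPM in con (-2.36 ± 0.73, edgeR adjusted p = 0.0435).

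All 7 abundant protein genes had fold changes below 0, with a median of -2.16 beside 0 over all genes, and 8 of the 13 lay below both con libraries, as did 23.0% of all genes, and none lay above both, as did 20.5%. The direction of the 7 was the same under all scalings tried. mt-Nd6 gave -0.37 ± 0.89 (edgeR adjusted p = 0.882), mt-Rnr1 -1.46 ± 0.74 (0.186) and mt-Rnr2 -1.48 ± 0.72 (0.171). The number of genes called was 8 without con 2, 2 without con-in vitro 1 and 0 without con-in vitro 2. It was 1 (mt-Co1) without con 1 or any 1 library of in vitro PSMPs, SAHA or PSMPs & OE-Hdac3. Of all 16736 genes, 3725 were called higher and 2813 lower without con 2, and 3255 and 2345 without con 1. Of these 7 comparisons 3 share con and 3 share con-in vitro, so their values are not independent of each other.

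The effect of exposure in culture, measured against con-in vitro, was also set against that in the animal, measured against con. No mitochondrial gene passed the test of this difference in edgeR, where 3 of the 13 protein genes had an unadjusted p under 0.05 and the smallest adjusted p was 0.0818. Over all 16736 genes, 4765 had an unadjusted edgeR p under 0.05, and 815 were called higher and 1071 lower.

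The respiratory chain is built from both genomes, and its nuclear mRNAs were summed and tested beside the mitochondrial ones. Summed over the 72 nuclear subunit genes of complexes I, III, IV and V, levels were 4549 and 4767 CPM in PSMPs & OE-Hdac3, 4505 and 4666 CPM in in vitro PSMPs, 5480 and 4801 CPM in SAHA, 1576 and 1313 CPM in con-in vitro, 4515 CPM in in vivo PSMPs and 2653 and 4139 CPM in con. The con-in vitro libraries were lowest, and con 1 was next. Over these sums, the 13 mitochondrial mRNAs stood at a ratio of 0.233 and 0.277 in PSMPs & OE-Hdac3, 0.273 and 0.542 in in vitro PSMPs, 0.974 and 0.388 in SAHA, 2.43 and 1.42 in con-in vitro, 1.22 in in vivo PSMPs and 7.48 and 2.10 in con. Only in con, con-in vitro and in vivo PSMPs did mitochondrial mRNAs outweigh the nuclear ones.

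**Figure D5:**
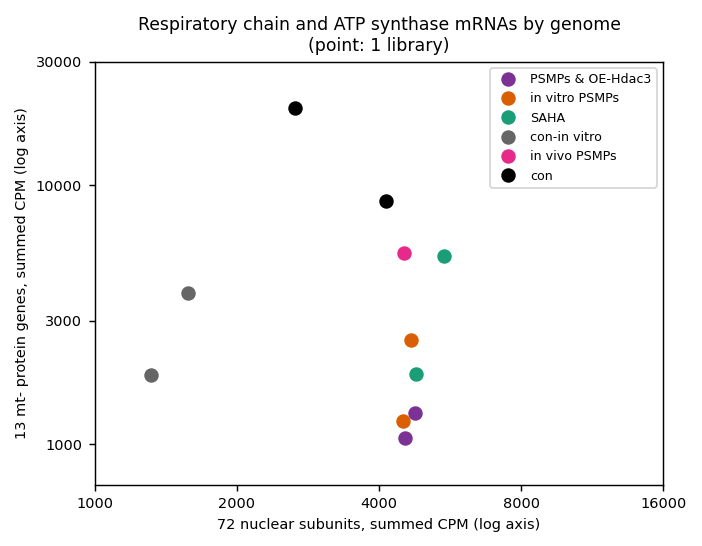
Summed CPM of the 13 mitochondrial protein genes (vertical, log axis) against that of 72 nuclear subunit genes of complexes I, III, IV and V (horizontal, log axis), 1 point per library. The con-in vitro points lie at the left, at 1576 and 1313 CPM, and the con points at the top, at 19842 and 8709 CPM.

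In in vitro PSMPs against con-in vitro, 23 of the 72 nuclear subunits (31.9%) rose and none fell, beside 8.57% and 6.78% of all genes (median fold change 1.42, beside 0.71 over all genes). Without single libraries between 11 and 29 were called higher, with 11 without either in vitro PSMPs library. Cox8a and Cox6c, small subunits of cytochrome c oxidase, stood at 178 ± 63.1 and 206 ± 90.2 CPM in in vitro PSMPs against 8.35 ± 1.32 and 16.5 ± 4.78 CPM in con-in vitro (SD, n = 2; log2 4.41 and 3.64, edgeR adjusted p = 2.17e-04 and 0.00106). Atp5b, the catalytic beta subunit of ATP synthase, stood at 516 ± 107 CPM in in vitro PSMPs against 117 ± 45.1 CPM in con-in vitro (SD, n = 2; log2 2.14 ± 0.36, edgeR adjusted p = 0.00435). In SAHA against con-in vitro 23 (31.9%) rose and 1 fell, beside 11.7% and 8.14% of all genes (10 and 0 without SAHA 1, 12 and 0 without SAHA 2), with Ndufa4 at 469 ± 89.0 CPM in SAHA against 28.9 ± 24.6 CPM in con-in vitro (SD, n = 2; log2 4.02 ± 0.62, edgeR adjusted p = 0.00268).

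In SAHA against con, 14 of the 72 (19.4%) rose and 3 (4.17%) fell, shares near those of all genes (20.2% and 6.75%). The numbers were 31 and 3 without con 2, 14 and 8 without con 1, 1 and 0 without SAHA 1, 3 and 0 without SAHA 2, and 7 and 2 without either PSMPs & OE-Hdac3 library. Of all 16736 genes, 4553 rose and 1829 fell without con 2, and 4790 and 1867 without con 1. The complex I subunit Ndufa10 stood at 274 ± 0.212 CPM in SAHA against 15.1 ± 1.67 CPM in con (SD, n = 2; log2 4.18 ± 0.41, edgeR adjusted p = 0.00183), while Cox8a stood at 182 ± 36.3 CPM in SAHA against 445 ± 2.99 CPM in con (SD, n = 2; log2 -1.29 ± 0.35, edgeR adjusted p = 0.0257, and up to 0.150 without either SAHA library). In con-in vitro against con, 2 (2.78%) rose and 12 (16.7%) fell, beside 14.7% and 10.5% of all genes. The counts were 17 and 14 without con 2, 1 and 19 without con 1, and 2 and 23 without con-in vitro 1. Of all 16736 genes, 3725 rose and 2813 fell without con 2, and 3255 and 2345 without con 1. Cox8a fell by 5.73 ± 0.43 (edgeR adjusted p = 9.82e-05), Atp5b by 2.37 ± 0.36 (0.00222) and Cox7a2 by 2.87 ± 0.42 (0.00192).

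In in vivo PSMPs against con and PSMPs & OE-Hdac3 against in vitro PSMPs, the number of genes of any kind called moved with single libraries. More genes were called in both comparisons without either con library, and few or none without some of the other libraries. Of all genes, 769 rose and 48 fell in in vivo PSMPs against con, but 1 rose and 0 fell without either in vitro PSMPs library, and 0 were called without any 1 library of SAHA or PSMPs & OE-Hdac3 or with only the compared groups in the fit. Against in vitro PSMPs, 309 rose and 499 fell in PSMPs & OE-Hdac3, but 0 were called without either PSMPs & OE-Hdac3 library, and 1, which fell, without in vitro PSMPs 2.

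Few nuclear subunits passed there, with counts that moved with single libraries. Without con 2, 29 rose in in vivo PSMPs against con, beside 3539 of all 16736 genes, and without con 1, 3 rose, beside 2415. In PSMPs & OE-Hdac3 against in vitro PSMPs without con 1, 7 rose and 6 fell, beside 1078 and 1298 of all genes. Without con 2, 6 rose and 6 fell there, beside 1078 and 1315. With all libraries, 1 rose in in vivo PSMPs against con, Uqcrc1, a core subunit of complex III, at 10.98 CPM in in vivo PSMPs and at 0 in con (edgeR adjusted p = 0.0453); this call was lost without any 1 library of in vitro PSMPs, SAHA or PSMPs & OE-Hdac3 (adjusted p of up to 0.134) and with only the compared groups in the fit (0.618). In PSMPs & OE-Hdac3 against in vitro PSMPs 1 fell, Ndufa4, at 30.1 ± 1.57 CPM in PSMPs & OE-Hdac3 against 333 ± 99.2 CPM in in vitro PSMPs (SD, n = 2; log2 -3.47 ± 0.60, edgeR adjusted p = 0.0175); this call was lost without any 1 library of in vitro PSMPs, SAHA or PSMPs & OE-Hdac3 (adjusted p of up to 0.203). With all groups in the fit, none passed in PSMPs & OE-Hdac3 against in vivo PSMPs by edgeR or DESeq2. With only the compared groups in the fit, 14 rose and 11 fell against in vitro PSMPs, beside 2648 and 2843 of all 13984 genes tested.

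The machinery that copies and processes mitochondrial RNA is nuclear-encoded. Of the 11 genes for mitochondrial transcription, 2 rose in both in vitro PSMPs and SAHA against con-in vitro (18.2%, beside 8.57% and 11.7% of all genes). Mterf3, a negative regulator of mitochondrial transcription, stood at 147 ± 18.1 CPM in in vitro PSMPs and 256 ± 45.4 CPM in SAHA, against 8.97 ± 0.322 CPM in con-in vitro (SD, n = 2; log2 4.03 and 4.83, edgeR adjusted p = 6.13e-04 and 2.78e-04). Tfb2m, which opens the promoter for the polymerase, stood at 39.8 ± 8.83 CPM in in vitro PSMPs and 73.6 ± 5.52 CPM in SAHA, against 7.41 ± 5.46 CPM in con-in vitro (SD, n = 2; log2 2.43 and 3.31, edgeR adjusted p = 0.0371 and 0.0102), calls that were lost without either SAHA library and, in in vitro PSMPs, also without either in vitro PSMPs library, either PSMPs & OE-Hdac3 library or con-in vitro 2. In PSMPs & OE-Hdac3, Mterf3 stood at 19.2 ± 4.55 CPM and fell by 2.94 ± 0.43 against in vitro PSMPs (edgeR adjusted p = 0.0119), the only called gene of this list there; the call was lost without in vitro PSMPs 2 or either PSMPs & OE-Hdac3 library (adjusted p of up to 0.162). Against con, 3 rose in SAHA (27.3%, beside 20.2% of all genes, and 0 to 5 without single libraries), and none passed in in vivo PSMPs. In con-in vitro against con, 1 rose and 1 fell (9.09% each, beside 14.7% and 10.5% of all genes).

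Of 30 genes for processing and stability of mitochondrial RNA, 29 passed the filter. Against con-in vitro, 4 rose and 1 fell in in vitro PSMPs, and 5 rose and 1 fell in SAHA; in percent, 13.8 and 17.2 rose, beside 8.57 and 11.7 of all genes, and 3.45 fell in each, beside 6.78 and 8.14. Trmt10c, a subunit of the mitochondrial RNase P that cuts the front end of tRNAs, stood at 48.3 ± 5.09 CPM in in vitro PSMPs and 60.7 ± 18.3 CPM in SAHA, against 3.95 ± 0.976 CPM in con-in vitro (SD, n = 2; log2 3.61 and 3.94, edgeR adjusted p = 0.00600 and 0.00350). Against con, 3 (10.3%) rose in in vivo PSMPs, beside 4.59% of all genes. With only the compared groups in the fit none rose, as for all genes. In SAHA 7 (24.1%) rose and 2 (6.90%) fell, near the shares of all genes (20.2% and 6.75%), and without single libraries between 1 and 10 rose. In con-in vitro 3 rose and 3 fell (10.3% each, beside 14.7% and 10.5%). Lrpprc, which stabilises mitochondrial mRNAs, stood at 35.4 CPM in in vivo PSMPs, 12.6 ± 0.166 CPM in SAHA and 22.9 ± 13.4 CPM in con-in vitro, against 1.11 ± 0.0455 CPM in con (SD, n = 2; log2 4.98, 3.49 and 4.35, edgeR adjusted p = 0.0453, 0.0115 and 0.00308). Its call was lost in in vivo PSMPs without any 1 library of in vitro PSMPs, SAHA or PSMPs & OE-Hdac3 (adjusted p of up to 0.134) and with only the compared groups (0.618), and in SAHA without either SAHA library (up to 0.0589).

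Of 14 genes for mitochondrial DNA replication and nucleotide supply, 1 (7.14%) rose in in vitro PSMPs and in SAHA against con-in vitro, beside 8.57% and 11.7% of all genes. In con-in vitro against con 1 (7.14%) rose and 2 (14.3%) fell, beside 14.7% and 10.5%. In in vivo PSMPs against con 1 rose and 1 fell (7.14% each), beside 4.59% and 0.287%. Rnaseh1 was called lower in con-in vitro against con, and Rrm2b in PSMPs & OE-Hdac3 against in vitro PSMPs. Dguok, the mitochondrial deoxyguanosine kinase, was called in 4 comparisons. It stood at 25.3 CPM in in vivo PSMPs against 151 ± 55.0 CPM in con (SD, n = 2; log2 -2.58 ± 0.61, edgeR adjusted p = 0.0488), a call lost in the same fits as that of Lrpprc in in vivo PSMPs (adjusted p of up to 0.134, and 0.618 with only the compared groups). It rose against con-in vitro (23.0 ± 11.5 CPM) in in vitro PSMPs (161 ± 39.4 CPM) and in SAHA (239 ± 16.5 CPM) and gave -2.72 ± 0.47 in con-in vitro against con (edgeR adjusted p = 0.00433). Of 20 mitochondrial tRNA synthetase genes, 4 (20%) rose and 1 (5%) fell in SAHA against con, beside 20.2% and 6.75% of all genes. In con-in vitro against con, 4 (20%) rose and 2 (10%) fell, beside 14.7% and 10.5% of all genes. Lars2, for leucine, fell against con by 4.09 ± 0.47 in SAHA and by 4.69 ± 0.48 in con-in vitro (edgeR adjusted p = 0.00244 and 3.74e-04).

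Of 78 genes for mitochondrial ribosomal proteins, 76 passed the filter. Against con-in vitro, 12 (15.8%) rose and 1 (1.32%) fell in in vitro PSMPs, beside 8.57% and 6.78% of all genes, and 13 (17.1%) rose and 1 (1.32%) fell in SAHA, beside 11.7% and 8.14%; without single libraries between 3 and 22 rose in in vitro PSMPs and between 2 and 22 in SAHA. In con-in vitro against con, 2 (2.63%) rose and 15 (19.7%) fell, beside 14.7% and 10.5% of all genes, and between 10 and 17 fell without single libraries. Mrpl18 stood at 157 ± 19.4 CPM in in vitro PSMPs and 158 ± 21.0 CPM in SAHA, against 32.4 ± 0.283 CPM in con-in vitro (SD, n = 2; log2 2.27 and 2.28, edgeR adjusted p = 0.00237 and 0.00203). Mrpl51 went the other way, at 13.2 ± 10.5 CPM in in vitro PSMPs and 4.08 ± 0.0655 CPM in SAHA, against 185 ± 8.39 CPM in con-in vitro (SD, n = 2; log2 -3.80 and -5.50, edgeR adjusted p = 0.0135 and 0.00286; 0.0848 in in vitro PSMPs without in vitro PSMPs 2). In SAHA against con 3 (3.95%) rose and 1 (1.32%) fell, beside 20.2% and 6.75% of all genes, and none passed in in vivo PSMPs against con or in either comparison of PSMPs & OE-Hdac3.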

How the data were processed

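RNA-seq counts per gene were measured in 12 libraries; 12 CUT&Tag samples were not analysed here. The authors deposited whole-number read counts per gene with mm10 coordinates and lengths, per the file headers. The submitters' processing notes name fastp 0.12.4, HISAT2, featureCounts, SAMtools, Picard, Bowtie2 2.2.5, deepTools 3.5.1, DESeq2 and mm10, without roles; treatment of reads with several positions and of strand is not given in the sources used here. Per the labels' protocols, full-length cDNA of 5 oocytes was amplified, so amplification adds to the spread.

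Both in vivo PSMPs columns were averaged, rounded to whole counts, to 1 library, leaving 5 residual degrees of freedom over 11 libraries (biological coefficient of variation 71.9%). In R 4.3.3, edgeR 4.0.16 (quasi-likelihood, TMM factors, filterByExpr with a minimum count of 10 over the 12 columns) tested 16736 genes in 1 fit of all groups, with Benjamini-Hochberg adjustment over all of them; DESeq2 1.42.0 was an alternative. The procedure was tested on simulated data. Named genes were, per comparison, the members past the threshold, else the 3 with the smallest p, plus mt-Nd6, mt-Rnr1 and mt-Rnr2; from the nuclear lists, called genes of at least 10 CPM in either group, at most 4 per list. The members and lists were chosen with earlier results of these data known. Shares carry exact (Clopper-Pearson) 95% intervals. Bounds against groups at 0 set the mean level of the other group against 3 counts over the group at 0. Alternatives were other scalings, filters and fits, and leaving out each library.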

Additional observations from a re-analysis of the deposited data

How the results depend on the processing

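Among the numbers of mitochondrial mRNAs called, in vitro PSMPs against con-in vitro gave 1 in the reported fit, 0 without a filter, 4 with library totals, 5 by DESeq2 and 2 each with only the compared groups or both in vivo PSMPs columns kept apart. SAHA against con-in vitro gave 1 by DESeq2. In every comparison DESeq2 also called more of all genes than edgeR, in both directions. SAHA against con gave 0 with only the compared groups. PSMPs & OE-Hdac3 against in vitro PSMPs gave 2 by DESeq2, 5 with only the compared groups, 1 with both columns apart and 2 with edgeR's adjusted deviances (an alternative chosen after seeing the data). With only these compared groups, 2648 of all 13984 genes tested rose and 2843 fell. Con-in vitro against con gave 2 with DESeq2 size factors, 7 with library totals, 6 by DESeq2 and 1 with only the compared groups. Shares of the 13 protein genes alone were 0.186% in PSMPs & OE-Hdac3, 0.200% in in vitro PSMPs and 0.701% in in vivo PSMPs, and the last share was 0.944% over genes with 10 counts in every library. The fold change of mt-Rnr1 changed sign in in vitro PSMPs against con-in vitro (0.84 with library totals, 0.021 with only the compared groups, 0.086 with the replicate block), in SAHA against con-in vitro (0.24 with library totals), in PSMPs & OE-Hdac3 against in vitro PSMPs (-0.00061 with a minimum count of 50, -0.0026 with only the compared groups, -0.014 with the replicate block) and in PSMPs & OE-Hdac3 against in vivo PSMPs (0.088 with library totals); that of mt-Nd6 did so in PSMPs & OE-Hdac3 against in vitro PSMPs (0.46 with library totals). The cause was not tested. Library totals moved the median over all genes to 1.70 in in vitro PSMPs and 1.37 in SAHA against con-in vitro, against 0.71 and 0.66 with TMM factors.

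Leaving out 1 library at a time, the calls ran from 0 to 4 in in vitro PSMPs and 0 to 2 in SAHA against con-in vitro, 0 to 6 in SAHA, 0 to 8 in con-in vitro and 0 to 0 in in vivo PSMPs against con, and 0 to 3 against in vitro PSMPs and 0 to 0 against in vivo PSMPs in PSMPs & OE-Hdac3. Ranges that crossed 0 were, for mt-Rnr1, -2.12 to 0.011 in in vivo PSMPs against con, -0.74 to 0.88 in in vitro PSMPs and -1.18 to 0.53 in SAHA against con-in vitro, and -0.26 to 0.25 in PSMPs & OE-Hdac3 against in vitro PSMPs. For mt-Rnr2 they were -2.01 to 0.0082 in in vivo PSMPs against con, -0.16 to 1.60 in in vitro PSMPs and -0.47 to 1.29 in SAHA against con-in vitro. For mt-Nd6 they were -2.13 to 0.96 in SAHA against con-in vitro, -0.62 to 0.69 in PSMPs & OE-Hdac3 against in vitro PSMPs and -2.31 to 0.43 in con-in vitro against con. The adjusted p of mt-Atp8 in in vivo PSMPs against con ran from 0.0758 to 1. Libraries sharing a replicate number deviated with correlations of -0.0445 to 0.0390 between compared groups, and of -0.223 for con with in vitro PSMPs. With 2 libraries a group these values cannot settle whether the numbers pair them. The fit with the replicate block also kept both in vivo PSMPs columns apart. It gave 1 call in in vitro PSMPs against con-in vitro, 4 in SAHA and 4 in con-in vitro against con and 0 in PSMPs & OE-Hdac3 against in vitro PSMPs. The same form without the block gave 2, 4, 5 and 1. With 2 libraries a group and 5 residual degrees of freedom, most calls rest on single libraries, and the trough genes and tRNAs are further limited by their few counts.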
